A study of Mus musculus with 6 samples.

Results

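The genes described here are 10 mouse genes that encode enzymes removing superoxide or peroxide, namely the superoxide dismutases Sod1 and Sod2, catalase (Cat), the glutathione peroxidases Gpx1 and Gpx4, and the peroxiredoxins Prdx1, Prdx2, Prdx3, Prdx5 and Prdx6. They were chosen by name, and the names were matched to the gene identifiers of the deposited tables through the GENCODE M21 annotation. All 10 were found among the 54886 genes listed, and all 10 passed the filter on low values that left 11884 genes for testing in the 6 libraries.

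The sequenced RNA came from GC-2spd, a cell line of the BALB/c strain derived from mouse spermatocytes. The control group held 3 libraries of cells kept for 48 h in normal culture medium without particles, for which the study's methods also name PBS. The PM2.5 group held 3 libraries of cells exposed for 48 h to fine particulate matter at 100 μg/mL, which the study's methods name as a standard material from an urban area. The labels do not say whether the replicates of a group were separate cultures, so p-values measure only the spread between these samples, which may be technical.

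Superoxide leaks from the mitochondrial respiratory chain and from oxidases, and superoxide dismutases turn it into hydrogen peroxide, Sod1 in the cytosol with copper and zinc and Sod2 in the mitochondrial matrix with manganese. Catalase splits hydrogen peroxide in peroxisomes, glutathione peroxidases reduce peroxides with glutathione at a selenocysteine, and peroxiredoxins reduce them at a cysteine that thioredoxin regenerates in most members. In male germ cells Gpx4 is known for protecting membrane lipids and for a structural role in the sperm midpiece.

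The deposited values were FPKM, a read level corrected for the length of the gene and the scale of the library. The reads recovered from the FPKM came to 18003191, 16209346 and 17511452 in control replicates 1, 2 and 3, and to 17000291, 17114008 and 17530613 in PM2.5 replicates 1, 2 and 3. Control replicate 2 stood apart from all other libraries. Its Pearson correlation of log2(FPKM + 1) over genes was 0.742 with control replicate 1 and 0.745 with control replicate 3, while the latter pair correlated at 0.992. Genes are not independent replicates, so these correlations are descriptions of the libraries. Mitochondrially encoded genes took 14.5% of its reads, against 1.65% to 1.95% elsewhere. PM2.5 replicate 3 stood apart to a lesser degree, with a correlation of 0.950 with PM2.5 replicate 1 and 0.958 with PM2.5 replicate 2, against 0.991 between those libraries. It correlated more with control replicates 1 and 3 (0.972 each) than with its own group. Each comparison is therefore given with all 6 libraries and without control replicate 2, and the effect of PM2.5 replicate 3 is given where it changed a call.

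The labelled cell type was checked against its markers. Of 16 markers of spermatocytes and other germ cells, 0 reached a mean of 1 FPKM, and Spo11, Hormad1, Dazl, Pgk2 and Tnp1 were listed at 0 in all 6 libraries. The most abundant of the 16 was the synaptonemal complex gene Sycp3, with a mean of 0.667 FPKM. The summed level of the germ cell markers was 0.475, 2.66 and 0.536 FPKM in control replicates 1, 2 and 3, and 0.288, 0.499 and 0.612 FPKM in the PM2.5 replicates. Defining transcripts of spermatocytes were thus absent or near 0, and the cells are called by the name of the line. Of 10 markers of peritubular cells and fibroblasts, 4 reached a mean of 1 FPKM, led by the collagen gene Col1a1 with a mean of 392 FPKM, and Lum was listed at 0. Their summed level was 660, 744 and 675 FPKM in the control replicates and 634, 631 and 372 FPKM in the PM2.5 replicates, lowest in PM2.5 replicate 3. Col1a1, Col1a2 and Pdgfrb were each lowest in that library, while Acta2 was not. Acta2 had 41.6, 88.3 and 43.3 FPKM in the control and 59.2, 58.1 and 59.5 FPKM in the PM2.5 replicates. Among 7 Sertoli cell markers only Gata4 passed that level (mean 17.2 FPKM; Cldn11 and Fshr at 0), with summed levels of 18.8, 18.0 and 19.2 FPKM in the control and 23.7, 20.8 and 12.3 FPKM in the PM2.5 replicates. Among 6 Leydig cell markers only Star did (mean 1.86 FPKM; Hsd3b1 and Lhcgr at 0), with sums of 2.04, 2.59 and 2.01 FPKM in the control and 1.74, 1.84 and 1.89 FPKM in the PM2.5 replicates. Among 5 macrophage and leukocyte markers Adgre1 and Ptprc were listed at 0 in all libraries. The lysosomal gene Cd68 led that list with a mean of 3.59 FPKM, and the list's sum was 1.32, 15.5 and 1.13 FPKM in the control and 1.52, 1.40 and 2.5 FPKM in the PM2.5 replicates. The part of these differences in the results on the enzyme genes was not tested.

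**Figure D1:**
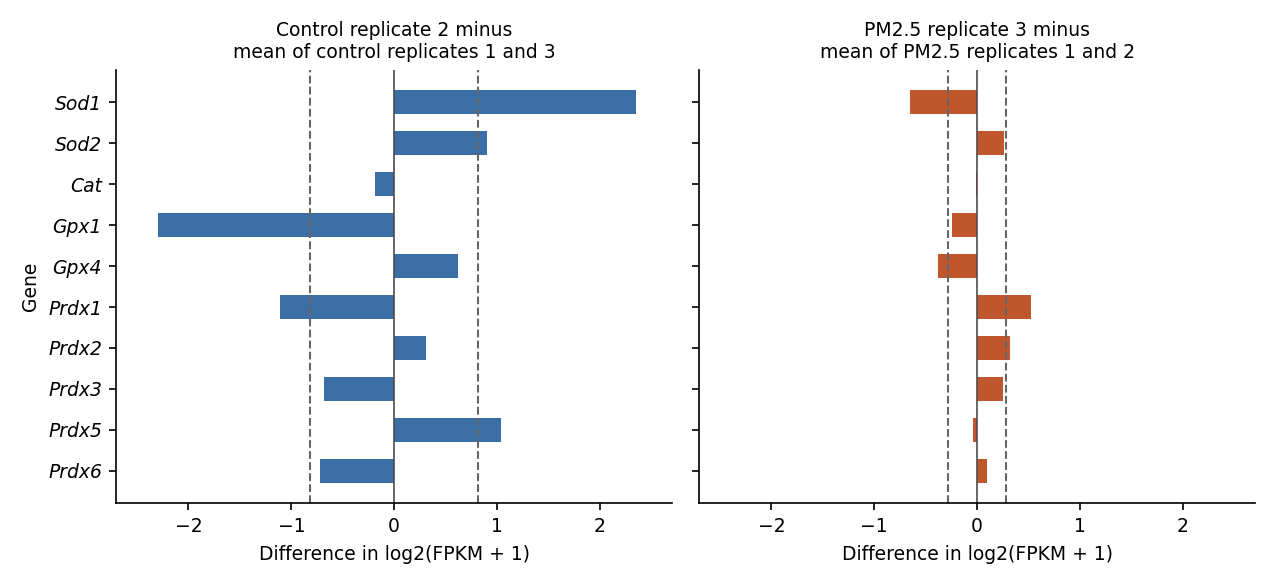
Distance of the libraries that stood apart from the other replicates of their group, for the 10 enzyme genes. Horizontal bars give the difference in log2(FPKM + 1) of control replicate 2 from the mean of control replicates 1 and 3 (left) and of PM2.5 replicate 3 from the mean of PM2.5 replicates 1 and 2 (right), and dashed lines mark the median absolute difference over all 11884 tested genes (0.81 on the left, 0.29 on the right). Sod1 (2.35) and Gpx1 (-2.29) reached farthest on the left, and Sod1 (-0.65) and Prdx1 (0.52) on the right.

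The enzyme genes were part of this difference. In control replicate 2 the Sod1 level was 5.23 times the mean of the other control replicates, Prdx5 2.08 times, Sod2 1.98 times, Gpx4 1.54 times and Prdx2 1.24 times. The Gpx1 level was 0.197 times that mean, Prdx1 0.462 times, Prdx6 0.581 times, Prdx3 0.617 times and Cat 0.874 times. On the scale of log2(FPKM + 1) the difference was 2.35 for Sod1 and -2.29 for Gpx1, and 6.85% and 7.41% of the tested genes lay farther out. Control replicates 1 and 3 differed by at most 0.13 in any of the 10 genes, with a median of 0.07 over all tested genes.

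By level the 10 genes spanned a wide range. FPKM is a level per length, and the order of the means over the 5 libraries without control replicate 2 was Prdx2 (314 FPKM), Prdx1 (272), Gpx4 (197), Gpx1 (128), Prdx3 (68.0), Prdx5 (63.4), Sod1 (47.3), Cat (28.9), Prdx6 (19.2) and Sod2 (8.29). The cytosolic peroxiredoxins Prdx2 and Prdx1 thus led the order, with 0.707% of the tested genes above Prdx2, while 26.2% lay above Prdx6 and 51.5% above Sod2. Neighbours whose ranges over the 5 libraries overlapped were Prdx2 with Prdx1, Prdx1 with Gpx4, Prdx3 with Prdx5, and Prdx5 with Sod1. Within each of the 5 libraries, Prdx2 nevertheless lay above Prdx1 and Prdx1 above Gpx4 on this scale. In control replicate 2 Gpx4 lay above Prdx1. The order of Prdx3 with Prdx5 and of Prdx5 with Sod1 differed between libraries. With control replicate 2 included, the ranges of Gpx1 with Prdx5, Sod1 with Prdx3 and Prdx6 with Sod2 overlapped as well. The order depended on the length used, because the deposited values divide by all annotated exons of a gene. For Sod1 these add up to 3970 bases, while its principal transcript has 641 bases, a ratio of 6.19. Rescaled to the longest principal transcript of each gene, Sod1 moved to the fourth place with 293 on the FPKM scale, behind Prdx2 (594), Prdx1 (361) and Gpx4 (355), and Sod2 kept the last place with 14.2. A ratio of FPKM between libraries within a gene does not depend on this length, while a difference of log2(FPKM + 1) depends on it through the added 1.

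**Figure D2:**
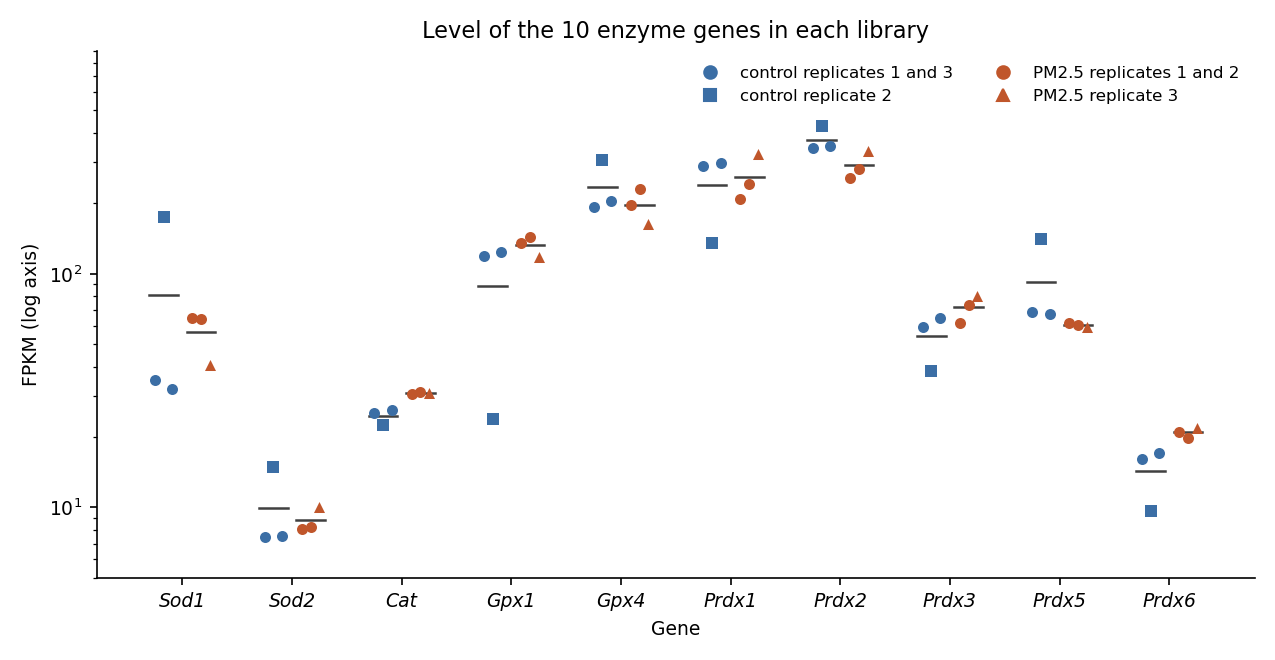
FPKM of the 10 enzyme genes in each of the 6 libraries, on a log axis. Circles, squares and triangles are single libraries as named in the key, and horizontal lines are the means of the 3 libraries of a group. Control replicate 2 lay far above the other control replicates for Sod1 (175 FPKM) and far below them for Gpx1 (23.9 FPKM), and in Cat and Prdx6 each PM2.5 library lay above each control library.

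Sod1 (ENSMUSG00000022982; GRCm38, chromosome 16 from 90220754 to 90226329, plus strand), the copper and zinc superoxide dismutase, had levels of 35.0, 175 and 32.1 FPKM in control replicates 1, 2 and 3. The PM2.5 replicates 1, 2 and 3 had 64.8, 63.9 and 40.7 FPKM. The groups overlapped because of control replicate 2, the highest of all libraries, and without it each PM2.5 library lay above each control library. Over 6 libraries the mean was 56.5 ± 13.7 FPKM in the PM2.5 group and 80.8 ± 81.9 FPKM in the control group (SD, n = 3 each). The log2 fold change, which here and throughout is the difference of PM2.5 from control on the scale of log2(FPKM + 1), was -0.08 (SE 0.68, limma adjusted p = 0.971). Without control replicate 2 the control mean was 33.5 ± 2.07 FPKM (SD, n = 2), the PM2.5 mean was 1.68 times as high, and the log2 fold change was 0.70 (SE 0.23, 95% interval 0.11 to 1.30, limma adjusted p = 0.256). With control replicate 2 kept, the difference was also positive on leaving out PM2.5 replicate 3 (0.14), under scaling to total reads (0.05) and under quantile normalization (0.16). The sign with 6 libraries was thus not stable, and the adjusted p passed no threshold with or without control replicate 2. In bulk RNA of this kind, fewer cells of a type and less RNA per cell cannot be told apart.

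Sod2 (ENSMUSG00000006818; chromosome 17 from 13006846 to 13040063, plus strand), the manganese enzyme of the mitochondrial matrix, had the lowest mean level of the 10 genes, although Prdx6 was lower in control replicate 2. Its levels were 7.47, 14.9 and 7.53 FPKM in the control replicates and 8.13, 8.28 and 10.0 FPKM in the PM2.5 replicates. Control replicate 2 was again the highest library, and without it the PM2.5 libraries lay above the control libraries, PM2.5 replicate 3 farthest. Over 6 libraries the Sod2 log2 fold change was -0.10 (SE 0.30, limma adjusted p = 0.925), and it was 0.20 (SE 0.12, limma adjusted p = 0.469) without control replicate 2. The ratio of the Sod1 level to the Sod2 level was 4.69, 11.8 and 4.26 in the control replicates and 7.98, 7.71 and 4.05 in the PM2.5 replicates. Both dismutases were higher in PM2.5 than in control replicates 1 and 3, but PM2.5 replicates 1 and 2 differed from them more in Sod1 and PM2.5 replicate 3 more in Sod2.

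Cat (ENSMUSG00000027187; chromosome 2 from 103453849 to 103485160, minus strand), which encodes the peroxisomal catalase, had the smallest SE of the 10 genes in both comparisons. Its levels were 25.4, 22.6 and 26.2 FPKM in the control replicates and 30.6, 31.3 and 30.8 FPKM in the PM2.5 replicates. Each PM2.5 library lay above each control library, and control replicate 2 was not far from its group. The mean was 24.7 ± 1.92 FPKM in the control and 30.9 ± 0.364 FPKM in the PM2.5 group (SD, n = 3 each), a ratio of 1.25. For Cat the log2 fold change was 0.31 (SE 0.18, limma adjusted p = 0.875) with 6 libraries and 0.25 (SE 0.08, limma adjusted p = 0.256) without control replicate 2. Of the 2603 stretches of 31 bases in Cat, 0 occurred in an annotated transcript of another gene.

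The promoters of Sod1, Cat and Prdx1 are shown because Sod1 had the largest difference without control replicate 2, Cat the most even one, and Prdx1 a difference of the opposite sign. Prdx1 was not the only such gene, and Prdx2 had a larger difference of that sign (-0.26, against -0.20 for Prdx1). They are the 250 bases before the RefSeq start on GRCm38.p6 (Sod1 at chr16:90220512-90220761, plus strand; Cat at chr2:103485154-103485403, minus strand; Prdx1 at chr4:116685349-116685598, plus strand), written 5′ to 3′ along the gene. Capitals mark matches on either strand to TGACNNNGC, the core of the antioxidant response element, or to GCGTG, the core of the xenobiotic response element.
Sod1: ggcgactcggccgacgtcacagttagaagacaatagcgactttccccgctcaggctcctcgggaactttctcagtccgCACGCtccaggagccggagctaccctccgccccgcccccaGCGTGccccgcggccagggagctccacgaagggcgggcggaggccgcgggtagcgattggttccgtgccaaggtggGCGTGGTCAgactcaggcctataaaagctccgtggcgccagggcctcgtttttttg
Cat: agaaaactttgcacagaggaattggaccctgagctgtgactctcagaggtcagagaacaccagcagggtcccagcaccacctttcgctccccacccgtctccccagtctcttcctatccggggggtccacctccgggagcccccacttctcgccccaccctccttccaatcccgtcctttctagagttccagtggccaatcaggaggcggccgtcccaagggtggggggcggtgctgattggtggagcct
Prdx1: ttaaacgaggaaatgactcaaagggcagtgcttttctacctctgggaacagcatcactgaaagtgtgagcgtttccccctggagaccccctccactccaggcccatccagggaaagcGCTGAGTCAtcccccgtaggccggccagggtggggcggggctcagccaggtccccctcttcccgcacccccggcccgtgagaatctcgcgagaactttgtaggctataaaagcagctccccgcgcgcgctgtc
The letters TGACNNNGC occurred in the windows of Sod1 (from 56 bases before the start) and Prdx1 (from 133 bases before the start), which are 2 of the 12 windows of the 9 enzyme genes with a RefSeq entry (4 windows for Gpx4 and 1 for each other gene), and in 10.2% of all 32851 promoters. The Sod1 match shares its first 5 bases with a GCGTG match. The letters GCGTG occurred in 9 of the 12 windows (3 of them overlapping or neighbouring windows of Gpx4, the others of Sod1, Sod2, Gpx1, Prdx2, Prdx3 and Prdx5), against 28.2% of all promoters. The overlapping windows of Gpx4 hold a GCGTG match in common. The GC content of the 3 windows shown was 66.4%, 62.0% and 61.6%, and its median over all promoters was 52.4%. The shares over all promoters were not matched for GC content, so enrichment of either motif was not tested. The Prdx6 entry was missing. A match of letters is a description and does not show binding.

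Gpx1 (ENSMUSG00000063856; chromosome 9 from 108338903 to 108340343, plus strand), the glutathione peroxidase of the cytosol with a share in mitochondria, had 119, 23.9 and 124 FPKM in the control replicates and 136, 144 and 118 FPKM in the PM2.5 replicates. Control replicate 2 was the lowest library by far, and PM2.5 replicate 3 lay below control replicates 1 and 3, so the groups overlapped. The fold of PM2.5 over control was 1.49 with 6 libraries and 1.09 without control replicate 2. On the log2 scale the difference was 0.89 (SE 0.65, limma adjusted p = 0.875) with 6 libraries and 0.12 (SE 0.12, limma adjusted p = 0.656) without that library, so most of its size was seen only with that library included.

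Gpx4 (ENSMUSG00000075706; chromosome 10 from 80047166 to 80056439, plus strand) reduces lipid peroxides and is made in cytosolic, mitochondrial and nuclear forms from the same gene. The control replicates had 193, 306 and 204 FPKM, and the PM2.5 replicates had 196, 231 and 163 FPKM. Neither group stood above the other with or without control replicate 2. Its log2 fold change was -0.23 (SE 0.30, limma adjusted p = 0.875) and, without control replicate 2, -0.03 (SE 0.17, limma adjusted p = 0.953). The Gpx4 values are uncertain, because 38.9% of its stretches of 31 bases were also found in transcripts of other genes, nearly all in the transcribed pseudogene Gpx4-ps2. That pseudogene, named here after its values were seen, was listed at 83.9, 66.1 and 103 FPKM in the control and 66.5, 79.6 and 83.1 FPKM in the PM2.5 replicates. The ratio of the Gpx4 to the Gpx1 level was 12.8 in control replicate 2, against 1.39 to 1.65 elsewhere.

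Prdx1 (ENSMUSG00000028691; chromosome 4 from 116685544 to 116700822, plus strand), a peroxiredoxin of the cytosol and nucleus that thioredoxin reduces, had 288, 135 and 297 FPKM in the control replicates. The PM2.5 replicates had 210, 243 and 324 FPKM. PM2.5 replicates 1 and 2 lay below control replicates 1 and 3, and PM2.5 replicate 3 lay above all controls. Prdx1 had a log2 fold change of 0.17 (SE 0.40, limma adjusted p = 0.907) over 6 libraries and of -0.20 (SE 0.20, limma adjusted p = 0.664) without control replicate 2. Of the Prdx1 stretches of 31 bases, 15.2% were shared with 215 other genes, the largest share with the processed pseudogene Gm21399 (9.71%).

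Prdx2 (ENSMUSG00000005161; chromosome 8 from 84969587 to 84974834, plus strand), the other abundant cytosolic peroxiredoxin, had 344, 430 and 351 FPKM in the control replicates and 257, 281 and 336 FPKM in the PM2.5 replicates. Each PM2.5 library lay below each control library, with PM2.5 replicate 3 next to control replicate 1. The mean was 292 ± 40.7 FPKM in the PM2.5 and 375 ± 47.6 FPKM in the control group (SD, n = 3 each). For Prdx2 the log2 fold change was -0.36 (SE 0.26, limma adjusted p = 0.875) with 6 libraries and -0.26 (SE 0.14, limma adjusted p = 0.438) without control replicate 2. With 6 libraries the difference was -0.23 under scaling to total reads and only -0.036 under quantile normalization. On the opposite strand, exons of Junb and Rnaseh2a overlap those of Prdx2, and the sources used here do not give a strand setting for the counting. Junb was listed at 99.7, 415 and 111 FPKM in the control and at 175, 163 and 41.1 FPKM in the PM2.5 replicates, so reads in the shared exons cannot be told apart. The ratio of Prdx2 to Prdx1 was 3.18 in control replicate 2, against 1.04 to 1.23 elsewhere, on the FPKM scale with all annotated exons as the length. Rescaled to the principal transcripts as above, their means lay farther apart.

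Prdx3 (ENSMUSG00000024997; chromosome 19 from 60864051 to 60874556, minus strand), the peroxiredoxin confined to mitochondria, had 59.3, 38.3 and 65.0 FPKM in the control replicates and 61.5, 73.5 and 80.5 FPKM in the PM2.5 replicates. PM2.5 replicate 1 lay between control replicates 1 and 3, so the groups overlapped with and without control replicate 2. Its log2 fold change was 0.43 (SE 0.27, limma adjusted p = 0.875) and, without control replicate 2, 0.20 (SE 0.14, limma adjusted p = 0.542).

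Prdx5 (ENSMUSG00000024953; chromosome 19 from 6906697 to 6910106, minus strand), found in mitochondria, peroxisomes and the cytosol, had 68.3, 141 and 67.2 FPKM in the control replicates and 61.4, 60.7 and 59.2 FPKM in the PM2.5 replicates. All PM2.5 libraries lay below all control libraries, and the PM2.5 group varied little (60.4 ± 1.11 FPKM, SD, n = 3). The log2 fold change was -0.51 (SE 0.34, limma adjusted p = 0.875) with 6 libraries and -0.16 (SE 0.08, limma adjusted p = 0.413) without control replicate 2. Exons of Trmt112 overlap Prdx5 on the opposite strand, and Trmt112 was listed at 40.2, 74.0 and 40.9 FPKM in the control and 31.2, 29.8 and 41.3 FPKM in the PM2.5 replicates.

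Prdx6 (ENSMUSG00000026701; chromosome 1 from 161240112 to 161251219, minus strand), a cytosolic peroxiredoxin reduced with glutathione, had 16.1, 9.63 and 17.1 FPKM in the control replicates and 20.9, 19.9 and 21.9 FPKM in the PM2.5 replicates. Each PM2.5 library lay above each control library, with or without control replicate 2. The means were 20.9 ± 1.02 FPKM in the PM2.5 and 14.3 ± 4.04 FPKM in the control group (SD, n = 3 each). The log2 fold change was 0.56 (SE 0.26, limma adjusted p = 0.875) with 6 libraries and 0.32 (SE 0.09, 95% interval 0.08 to 0.56, limma adjusted p = 0.214) without control replicate 2, where it had the smallest adjusted p of the 10 genes.

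Taken over the 10 genes, no enzyme gene passed the test in either comparison, which asked whether PM2.5 exposure changed its transcript level. With 6 libraries limma called 0 of the 10 genes and 11 of 11884 genes in all (0.0926%), and at an unadjusted p under 0.05 it had 0 of the 10 and 3.80% of all genes. With control replicate 2 left out it called 0 of the 10 and 119 of 11597 genes (1.03%). At these shares of called genes, 0 calls among 10 genes says little about the enzyme genes. At an unadjusted limma p under 0.05, leaving out that library gave 3 of the 10 (Sod1, Cat and Prdx6, all higher with PM2.5), beside 16.0% of all genes. The median log2 fold change of the 10 genes was 0.05 with 6 libraries and 0.16 without control replicate 2, beside 0.02 and -0.01 over all genes tested. With 6 libraries it was 0.18 under scaling to total reads and 0.24 under quantile normalization, beside 0.13 and 0.016 over all genes. The median SE of the 10 genes was 0.30 and 0.13, beside 0.30 and 0.14 over all genes. Limma draws each SE toward a trend over all genes, so this likeness is partly built in. With 6 libraries the SE of the 10 genes ranged from 0.18 (Cat) to 0.68 (Sod1). With voom on the recovered reads, 0 of the 10 were called in both comparisons, beside 0 genes in all with 6 libraries and 156 of 11498 (1.36%) without control replicate 2.

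In 4 of the 10 genes the groups did not overlap with 6 libraries, Cat and Prdx6 with PM2.5 higher and Prdx2 and Prdx5 with PM2.5 lower. Over all genes 15.2% did so, 8.35% higher and 6.85% lower. When control replicate 2 was left out, the groups did not overlap in 6 of the 10 genes, Sod1, Sod2, Cat and Prdx6 with PM2.5 higher and Prdx2 and Prdx5 with PM2.5 lower, beside 37.6% of all genes, 17.8% higher and 19.8% lower.

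**Figure D3:**
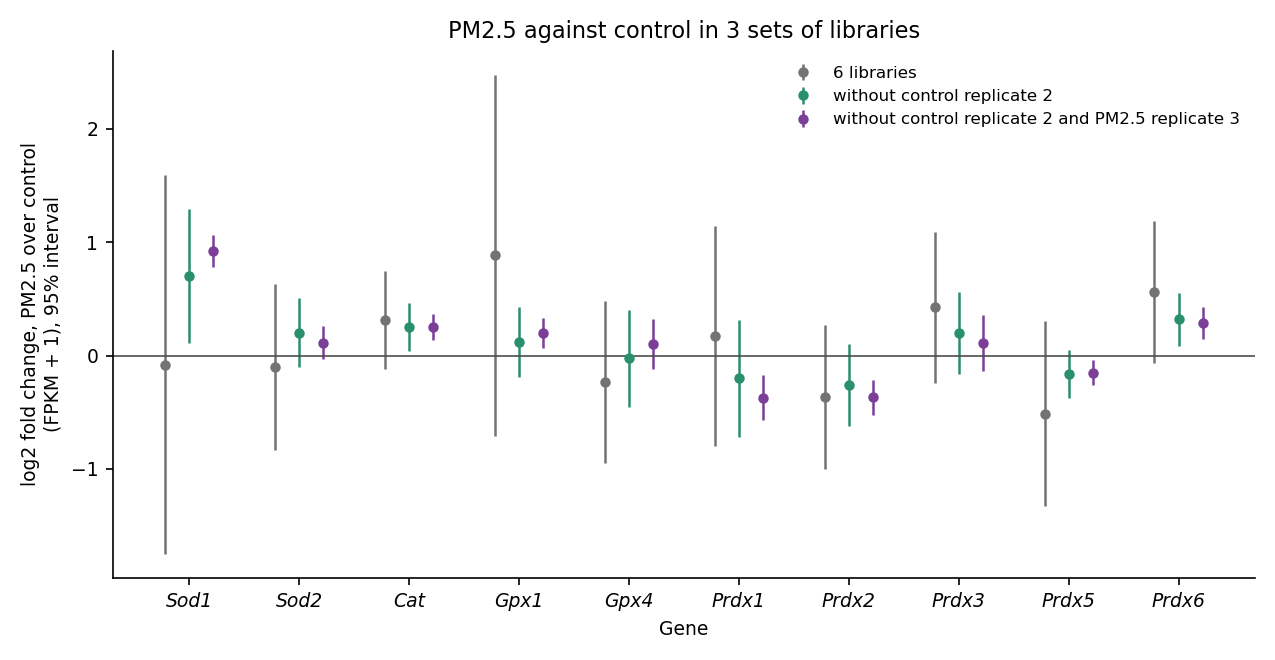
Log2 fold change of PM2.5 over control for the 10 enzyme genes on the scale of log2(FPKM + 1). Points are limma estimates and vertical lines are 95% intervals, with all 6 libraries in grey, without control replicate 2 in green, and without control replicate 2 and PM2.5 replicate 3 in purple. The Sod1 estimate was -0.08, 0.70 and 0.92 in these sets, while Cat stayed between 0.25 and 0.31.

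Leaving out a single further library changed the calls. Without control replicate 2 and PM2.5 replicate 3, limma called 5594 of 11624 genes (48.1%), and 7 of the 10 enzyme genes, with 2 libraries left in each group. The spread was then that between control replicates 1 and 3 and between PM2.5 replicates 1 and 2, which lay close together. Sod1, Cat, Gpx1 and Prdx6 rose in that fit, 4 of the 10 beside 24.0% of all genes, and Prdx1, Prdx2 and Prdx5 fell, 3 of the 10 beside 24.1% of all genes. The log2 fold change was then 0.92 for Sod1 (SE 0.06, limma adjusted p = 0.000485), 0.25 for Cat (SE 0.05, limma adjusted p = 0.00821) and 0.29 for Prdx6 (SE 0.06, limma adjusted p = 0.0103). For Prdx1 it was -0.37 (SE 0.08, limma adjusted p = 0.0129) and for Prdx2 -0.37 (SE 0.06, limma adjusted p = 0.00563). Gpx1 (0.20, SE 0.05, limma adjusted p = 0.0258) and Prdx5 (-0.15, SE 0.04, limma adjusted p = 0.0364) passed with smaller differences. Sod2, Gpx4 and Prdx3 did not pass, with 0.12, 0.10 and 0.11. Leaving out control replicate 1, control replicate 3, PM2.5 replicate 1 or PM2.5 replicate 2 in place of PM2.5 replicate 3 left 0 genes called in all and 0 of the 10. With control replicate 2 kept, leaving out any other library also gave 0 calls. Over the alternatives tried without control replicate 2, the adjusted p of Sod1 ranged from 0.000485 to 0.950, that of Cat from 0.00821 to 0.998 and that of Prdx6 from 0.0103 to 0.959.

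The cytosolic enzymes (Sod1, Gpx1, Prdx1, Prdx2 and Prdx6) were compared with the mitochondrial enzymes (Sod2 and Prdx3), as the mean log2(FPKM + 1) of each set in each library. Prdx5 and Gpx4, which occur in several compartments, and the peroxisomal Cat were left out of both sets. The mitochondrial mean minus the cytosolic mean was -2.06, -1.63 and -2.0 in control replicates 1, 2 and 3, and -2.09, -2.01 and -1.80 in the PM2.5 replicates. The mitochondrial set was lower in all 6 libraries, and the libraries with the smallest gap were the ones that stood apart, control replicate 2 and PM2.5 replicate 3. The mean difference between PM2.5 and control was -0.07 with 6 libraries, under the pooled SD of 0.20, and 0.06 without control replicate 2, under the pooled SD of 0.12. The mean log2 fold change was 0.16 for the mitochondrial and 0.23 for the cytosolic set with 6 libraries, and 0.20 and 0.14 without control replicate 2. With these sets the balance between the compartments thus differed between the groups by less than the spread between replicates. Leaving out Gpx1, which has a share in mitochondria, gave 0.09 with 6 libraries and 0.06 without control replicate 2, so the sign with 6 libraries depended on that gene. The statement on spread did not hold with Prdx5 and Gpx4 counted as mitochondrial. The difference between the sets was then -0.88, -0.10 and -0.85 in control replicates 1, 2 and 3 and -0.98, -0.92 and -0.94 in the PM2.5 replicates, so that each PM2.5 library lay below each control library. PM2.5 minus control was then -0.34 with 6 libraries (pooled SD 0.31), near the spread, and -0.08 without control replicate 2 (pooled SD 0.03), a larger distance than the spread.

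**Figure D4:**
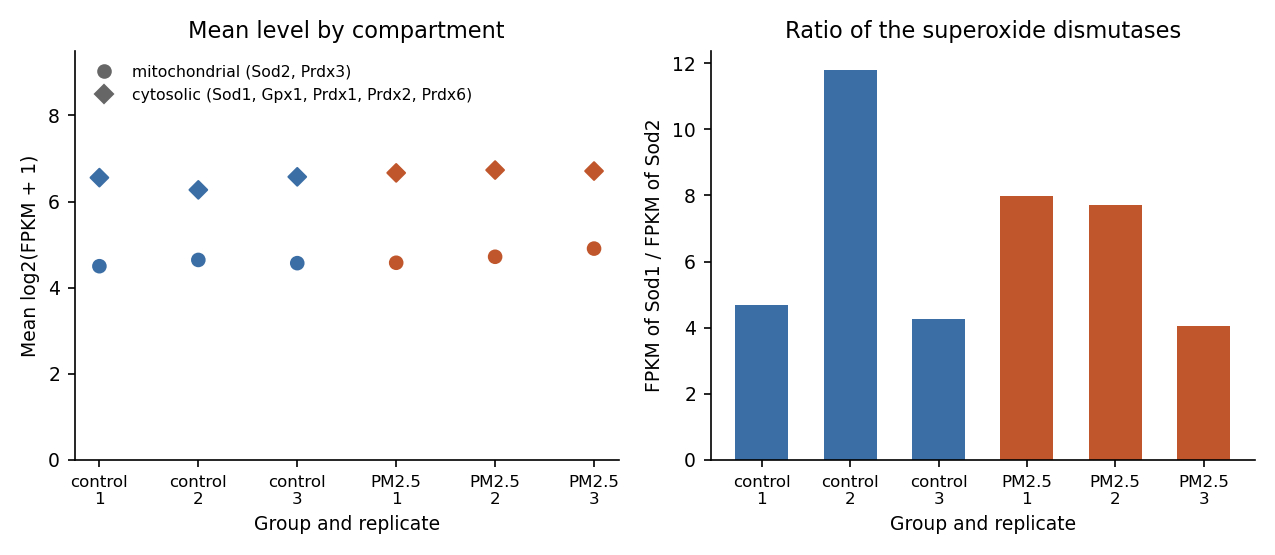
Mitochondrial and cytosolic enzyme genes in each library, control in blue and PM2.5 in orange. The left panel gives the mean log2(FPKM + 1) of Sod2 and Prdx3 (circles) and of Sod1, Gpx1, Prdx1, Prdx2 and Prdx6 (diamonds), and the right panel the ratio of the Sod1 to the Sod2 level as bars, which was 11.8 in control replicate 2, 7.98 and 7.71 in PM2.5 replicates 1 and 2, and between 4.05 and 4.69 in the others.

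The peroxiredoxins did not share a sign. Without control replicate 2, Prdx3 and Prdx6 had positive and Prdx1, Prdx2 and Prdx5 negative log2 fold changes. Both dismutases, catalase and Gpx1 had positive ones there, and Gpx4 a negative one. With 6 libraries Sod1 and Sod2 were negative and Prdx1 positive, and there the signs of Sod1 and Sod2 changed under scaling to total reads and those of Sod1 and Gpx4 under quantile normalization. The summed FPKM of the 10 genes was 1155, 1296 and 1191 in the control replicates and 1046, 1156 and 1184 in the PM2.5 replicates, so the groups overlapped in this sum.

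Genes around these enzymes were read from the same fits in 5 lists of 76 genes, all of which were found and 52 of which were tested. With 6 libraries 0 of the 52 were called, beside 0.0926% of all genes, and 4 had an unadjusted p under 0.05, beside 3.80% of all genes. Without control replicate 2 limma called 1, which was higher with PM2.5, beside 1.03% of all genes, and 16 had an unadjusted p under 0.05, beside 16.0% of all genes. The median log2 fold change of the 52 was 0.01 and 0.06. The called gene was Xdh, which encodes xanthine oxidoreductase, an enzyme whose oxidase form releases superoxide and hydrogen peroxide, the substrates of the enzymes above. Xdh had 4.45, 2.39 and 4.28 FPKM in the control replicates and 18.1, 17.3 and 14.9 FPKM in the PM2.5 replicates, so that its groups lay far apart in all libraries. Its log2 fold change was 1.73 (SE 0.12, limma adjusted p = 0.00970) without control replicate 2 and 1.95 (SE 0.25, limma adjusted p = 0.121) with it. The Xdh call was lost on leaving out, beside control replicate 2, control replicate 1, control replicate 3, PM2.5 replicate 1 or PM2.5 replicate 2 (log2 fold change 1.67 to 1.75, limma adjusted p 0.0600 to 0.239). When PM2.5 replicate 3 was the further library left out, limma called Xdh (1.81, SE 0.06, limma adjusted p = 0.000165) and 31 of the 52 in all, 20 higher and 11 lower, beside 48.1% of all genes. In the list of oxidant sources 7 of 20 genes were tested, and Nox3, Duox2 and Noxa1, genes of NADPH oxidases, were listed at 0 in all 6 libraries. Cyba, a further gene of these oxidases named after its values were seen, was present in each library. It had 37.7, 85.5 and 39.1 FPKM in the control and 60.2, 65.1 and 29.5 FPKM in the PM2.5 replicates.

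In a list of 19 genes around the reduction of peroxidases, among them Txnip, an inhibitor of thioredoxin, 0 were called in either comparison. Without control replicate 2, 7 were higher and 3 lower at an unadjusted limma p under 0.05, beside 16.0% of all genes in either direction. The higher ones were Txn2, Txnrd1, Txnrd3, Srxn1, Gclc, Gclm and Gss, and the lower ones were Sesn1, Sesn3 and Txnip. The largest difference of the list without control replicate 2 was in Txnrd3, a thioredoxin reductase. It had 3.59, 6.23 and 3.99 FPKM in the control and 6.93, 7.75 and 6.20 FPKM in the PM2.5 replicates. Its log2 fold change was 0.73 (SE 0.12, limma adjusted p = 0.0813) without control replicate 2 and 0.53 (SE 0.23, limma adjusted p = 0.875) with it. The genes of this list other than Txnrd3 are named here after their values were seen. Txnrd1, the cytosolic thioredoxin reductase that serves Prdx1 and Prdx2, had 43.5, 8.58 and 44.3 FPKM in the control and 71.6, 68.2 and 64.9 FPKM in the PM2.5 replicates. Srxn1, the sulfiredoxin that restores overoxidized peroxiredoxins, had 29.8, 36.9 and 30.4 FPKM in the control and 41.7, 40.6 and 42.4 FPKM in the PM2.5 replicates. Both lay higher in each PM2.5 library than in each control library. Gclc, a subunit of the rate-limiting enzyme of glutathione synthesis, had 23.0, 19.9 and 22.8 FPKM against 32.5, 33.1 and 40.7 FPKM, and Txnip, which binds and inhibits thioredoxin, had 24.3, 28.6 and 26.5 FPKM against 15.3, 15.0 and 18.4 FPKM. The groups of Gclc and Txnip did not overlap either, in opposite directions, and limma called neither in these 2 comparisons. Of the 19 genes of this list the groups did not overlap in 6 with PM2.5 higher and 2 with PM2.5 lower over 6 libraries, beside 15.2% of all genes, and in 9 and 4 without control replicate 2, beside 37.6% of all genes.

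**Figure D5:**
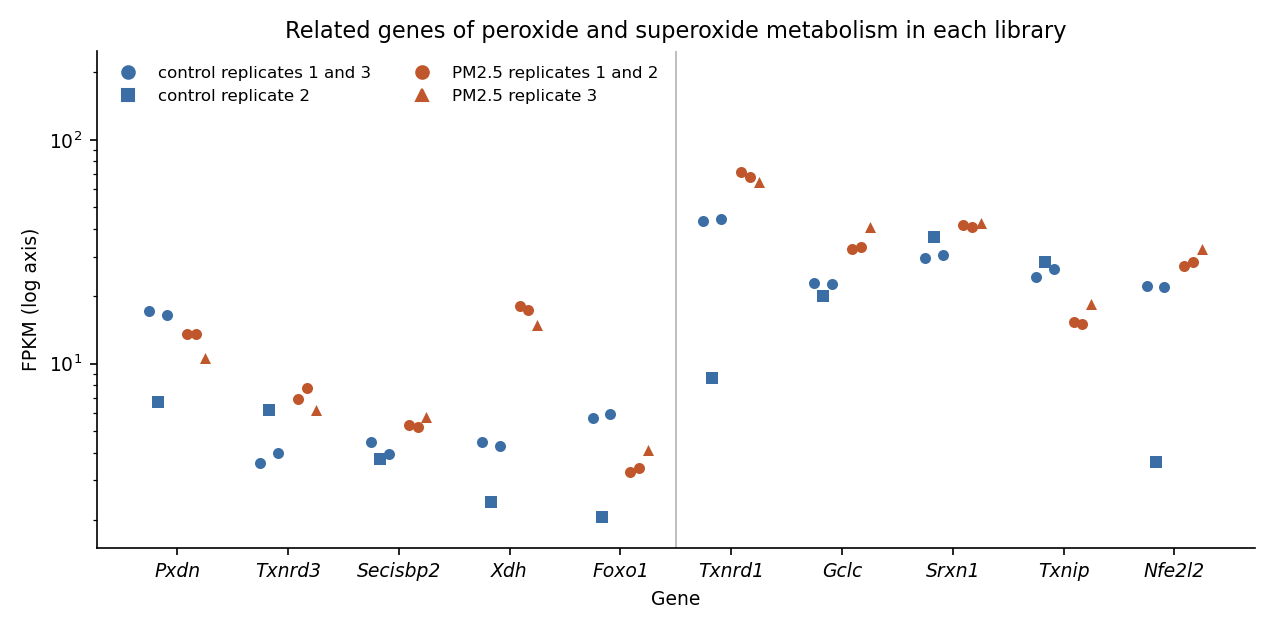
FPKM of 10 related genes in each of the 6 libraries on a log axis, with single libraries as named in the key. The genes left of the line had the largest change in their list without control replicate 2, and those right of it were picked after their values were seen. Xdh lay between 14.9 and 18.1 FPKM in the PM2.5 group and between 2.39 and 4.45 FPKM in the control group.

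In the other 3 lists 0 genes were called in either comparison, beside 0.0926% and 1.03% of all genes, a share at which 0 calls in lists of this size says little. Of 15 further members of the enzyme families 6 were tested, and the largest difference without control replicate 2 was in the matrix peroxidase Pxdn, with 17.2, 6.70 and 16.5 FPKM in the control and 13.6, 13.5 and 10.5 FPKM in the PM2.5 replicates. Of 11 genes that supply metals or selenium 11 were tested. Secisbp2, which helps to insert selenocysteine into enzymes such as Gpx1 and Gpx4, had the largest difference there without control replicate 2, with 4.46, 3.75 and 3.92 FPKM against 5.34, 5.18 and 5.77 FPKM. Of 11 regulators 9 were tested, and Foxo1, a transcription factor that acts on Sod2 and Cat, had 5.69, 2.06 and 5.94 FPKM in the control and 3.29, 3.40 and 4.11 FPKM in the PM2.5 replicates. The log2 fold change without control replicate 2 was -0.41 for Pxdn (limma adjusted p = 0.264), 0.31 for Secisbp2 (limma adjusted p = 0.252) and -0.57 for Foxo1 (limma adjusted p = 0.117). With 6 libraries it was 0.00 for Pxdn, 0.35 for Secisbp2 and -0.19 for Foxo1, with an adjusted p of at least 0.875 in limma, and other genes of these 3 lists differed more. Nfe2l2, which encodes the NRF2 factor and is named here after its values were seen, had 22.1, 3.62 and 22.1 FPKM in the control and 27.3, 28.5 and 32.6 FPKM in the PM2.5 replicates, with a log2 fold change of 0.40 (limma adjusted p = 0.196) without control replicate 2 and 1.17 (limma adjusted p = 0.875) with it.

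Genes whose profile over the 6 libraries was most like that of an enzyme gene were taken by the smallest root mean square difference of centred log2(FPKM + 1) values. For Sod1 these were Uqcrq (0.04), a subunit of respiratory complex III, Gas8 (0.07) and Gadd45a (0.07). Uqcrq had 46.1, 242 and 42.4 FPKM in the control and 85.1, 84.2 and 51.0 FPKM in the PM2.5 replicates. For Sod2 they were Wdr77 (0.03), Dnttip2 (0.03) and Reps1 (0.04), with Wdr77 at 12.4, 23.4 and 12.6 FPKM against 13.3, 14.0 and 17.2 FPKM. For Cat they were Mcm10 (0.03), Rad23b (0.04) and Snu13 (0.04), and Mcm10 had 8.97, 8.04 and 9.19 FPKM against 10.6, 11.1 and 10.3 FPKM. Since the choice used all 6 libraries, these genes share the high or low libraries of the enzyme gene by selection.

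Sequence shared with other genes limited a few of the values. Stretches of 31 bases were shared in 5.41% of Sod1, mostly with the processed pseudogene Gm8566 (4.98, 9.45 and 5.49 FPKM in the control and 15.0, 13.5 and 10.5 FPKM in the PM2.5 replicates), and in 26.6% of Sod2, whose annotated exons of 10008 bases share stretches with 1242 genes. They were shared in 7.36% of Prdx2 and 2.34% of Prdx6, and in none of Cat, Gpx1, Prdx3 and Prdx5. The reads behind a value ranged from 447 for Gpx1 in control replicate 2 to 19471 for Prdx2 in control replicate 1. Counting error was thus a small part of each value. Its part in the SE of the fits, which were small for some genes, was not tested.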

How the data were processed

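The authors deposited FPKM for each of the 6 libraries. The submitters' processing notes name HISAT2 2.0.5, featureCounts 1.5.0-p3 and the build mm9, and the study's methods name DESeq2. Exon lengths from GENCODE M21 on GRCm38 nevertheless turned between 98.1% and 98.4% of the values under 50 reads into whole reads (tolerance 0.05 reads), and positions are given on GRCm38. The implied library denominators followed size factors, so the FPKM were taken as already scaled.

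As the files hold FPKM, log2(FPKM + 1) was fitted with limma 3.58.1 (trend and robust; R 4.3.3, statmod 1.5.0) over genes with a mean of at least 1 FPKM, with Benjamini-Hochberg adjustment over all of them and calls at an adjusted p under 0.05. The fit was tested on simulated data, where it called more unchanged genes with few reads than the adjustment intends. The criterion of that test was then limited to genes with at least 50 reads. The members and lists were chosen with earlier results of these data known. Named genes are the 10 members, called genes of the 5 lists and the largest change in each list, the 3 nearest profiles of Sod1, Sod2 and Cat, and markers. Further genes are named where the text says that their values were seen first, where they overlap or share sequence with a member, or as oxidase genes listed at 0. Promoters came from RefSeq (GRCm38.p6). Alternatives were other filters, pseudocounts, thresholds and scalings, voom on recovered reads, a replicate block and leaving out each library.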

Additional observations from a re-analysis of the deposited data

How the results depend on the processing

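With 6 libraries, 121 of 130 alternative log2 fold changes of the 10 genes kept their sign and 0 were called (adjusted p between 0.214 and 0.999). The sign changed for Sod1 (0.054) and Sod2 (0.026) under scaling to total reads, for Sod1 (0.16) and Gpx4 (0.0032) under quantile normalization, and on leaving out a library for Sod1 (range -0.50 to 0.70), Sod2 (-0.25 to 0.20) and Prdx1 (-0.20 to 0.37). Without control replicate 2, 118 of 120 kept their sign and 7 were called, all without PM2.5 replicate 3, and Gpx4 changed sign (range -0.15 to 0.10).

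With 6 libraries the count of called genes (11) was 0 with no filter, 0 at a mean FPKM of at least 5, 6 under scaling to total reads, 0 with voom and between 0 and 119 on leaving out a library. Related genes called ranged from 0 to 1. In the comparison without control replicate 2 the count (119) was 54 with no filter and between 0 and 5594 on leaving out a further library, with 0 to 7 of the enzyme genes and 0 to 31 of 52 related genes (48.1% of all genes in the fit with 31), and voom called 2 related genes beside 156 genes in all (1.36%). Where this left 1 library in a group, it was assumed to vary like the others. The replicate block gave 0 calls with 6 libraries and 135 without control replicate 2, and 0 of the 10 genes in both. Deviations from the group mean correlated at r = -0.285, 0.180 and 0.253 for libraries of the same number. Control replicate 2 and PM2.5 replicate 3 shape these deviations, so the correlations can neither show nor exclude a pairing. The numbers were not taken as pairs in the main fits. The mitochondrial minus cytosolic difference (-0.07) was -0.34 with Prdx5 and Gpx4 counted as mitochondrial, 0.092 without Gpx1, -0.18 under quantile normalization and -0.15 to 0.06 on leaving out a library. Without control replicate 2 (0.06) the same alternatives gave -0.084, 0.060, 0.089 and -0.02 to 0.12. Scaling to total reads moved the median log2 fold change of all genes from 0.02 to 0.13 with 6 libraries. The cause of these changes was not tested.

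With 3 libraries a group, of which 1 stood apart in each, small differences could not be told from spread, and the labels do not say whether libraries were separate cultures. Transcript levels say nothing of enzyme amount or activity.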
